A study of Rattus norvegicus with 9 samples.

Results

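Skeletal muscle fibres carry a set of proteins that other cells make little of: the actin and troponins of the thin filament, the myosin light chains of the thick filament, the creatine kinase that regenerates ATP, and the calcium pump and calcium stores of the sarcoplasmic reticulum. The 10 genes of this kind examined in rat bladder were Ckm, Acta1, Mylpf, Tnnc2, Tnni2, Tnnt3, Atp2a1, Pvalb, Actn3 and Casq1, each chosen by its symbol. An Affymetrix rat array measured them with 11 probe sets among 31042, and the 10 genes are among 14217 that have a probe set of their own. Ckm, Acta1, Tnnc2, Tnni2, Tnnt3, Atp2a1, Pvalb, Actn3 and Casq1 were found under the symbols given. Mylpf is listed by the array annotation under its newer symbol Myl11 and was matched through its gene identifier. Tnnt3 has 2 probe sets, and the brighter over the 9 arrays is given first.

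The question of the study behind these arrays was which genes differ between bladder transitional cell carcinoma and bladder without a tumor. RNA came from 3 tumors, from 3 samples of adjacent normal tissue of the same 3 female SD rats, and from bladders of 3 other, normal SD rats. The tumors followed weekly instillation of 20 mg/ml MNU, an alkylating carcinogen, into the bladder for 10 weeks, and the labels give an age of 10 weeks for every animal. The sample labels repeat the MNU text for all 9 samples, also for the 3 that the series design calls normal rats. The groups are called tumor, adjacent and normal, and a number after the word is the replicate number of the label. Tumor and adjacent samples of like number are read as the same rat, which is an assumption. Tumor and adjacent samples are whole tissue, and the labels do not say how deep into the bladder wall each was cut. All values are log2 signals of the deposited table unless a percentage is given.

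Skeletal muscle contracts when calcium, released from stores that calsequestrin fills inside the sarcoplasmic reticulum, binds troponin C and moves the troponin complex on the actin filament. Fast fibres use the isoforms encoded by Tnnc2, Tnni2 and Tnnt3, together with the fast calcium pump of Atp2a1 and the calcium buffer parvalbumin. The bladder wall holds smooth muscle, whose contraction is switched through the myosin light chain and not through troponin, and its inner face is lined by the urothelium from which these carcinomas arise.

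The label "skeletal muscle" fitted the normal bladders only in part. Acta1, Tnnc2, Tnnt3, Ckm, Casq1 and Tnni2 were above a signal of 50 on all 3 normal arrays, the level taken here as the limit below which values are too variable to read (5.64 on the log2 scale). Mylpf and Pvalb, the fast myosin light chain and parvalbumin, were below that limit on all 9 arrays. Atp2a1 and Actn3, the fast calcium pump and the fast-fibre alpha-actinin, passed it on 1 array each, tumor 1 for Atp2a1 and adjacent 3 for Actn3. Of 15 measured myogenic factors and end plate genes, 8 were dim on all 9 arrays, as were 1727 of all 14217 genes. The 10 genes are therefore described by name and not as a measure of skeletal muscle tissue.

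Promoter sequence is printed for the 4 genes that were lower in tumors or adjacent tissue and have an entry, and for Tnni2, which did not follow them, so that both can be compared. Each runs from 250 bases before to 50 bases after the RefSeq start of the gene on the build GRCr8. Of the 10 genes, 9 have such an entry, and Tnnt3 has none. Ckm lies at chr1:88189211-88189510 on the plus strand, Acta1 at chr19:68784145-68784444 on the minus strand, Tnnc2 at chr3:173935290-173935589 on the minus strand, Casq1 at chr13:87212661-87212960 on the minus strand and Tnni2 at chr1:207024240-207024539 on the plus strand. Capitals mark E-boxes (CANNTG, the letters bound by myogenic factors and by many other proteins) and the CArG box, the letters bound by serum response factor.
Ckm: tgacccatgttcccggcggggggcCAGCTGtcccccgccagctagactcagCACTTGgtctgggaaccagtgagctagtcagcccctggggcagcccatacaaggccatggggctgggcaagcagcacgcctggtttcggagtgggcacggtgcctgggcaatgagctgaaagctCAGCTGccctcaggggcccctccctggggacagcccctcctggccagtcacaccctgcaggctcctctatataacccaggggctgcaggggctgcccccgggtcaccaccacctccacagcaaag
Acta1: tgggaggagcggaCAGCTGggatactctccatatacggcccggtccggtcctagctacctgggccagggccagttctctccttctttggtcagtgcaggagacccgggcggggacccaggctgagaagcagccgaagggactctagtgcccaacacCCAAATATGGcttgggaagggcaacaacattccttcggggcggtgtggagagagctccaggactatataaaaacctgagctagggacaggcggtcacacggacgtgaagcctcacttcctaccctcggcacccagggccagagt
Tnnc2: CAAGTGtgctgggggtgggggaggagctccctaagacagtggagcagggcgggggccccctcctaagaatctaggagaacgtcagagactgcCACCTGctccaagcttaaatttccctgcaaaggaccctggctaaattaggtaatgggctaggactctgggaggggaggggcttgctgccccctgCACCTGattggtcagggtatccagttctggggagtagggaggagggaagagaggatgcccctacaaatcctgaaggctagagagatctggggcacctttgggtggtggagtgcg
Casq1: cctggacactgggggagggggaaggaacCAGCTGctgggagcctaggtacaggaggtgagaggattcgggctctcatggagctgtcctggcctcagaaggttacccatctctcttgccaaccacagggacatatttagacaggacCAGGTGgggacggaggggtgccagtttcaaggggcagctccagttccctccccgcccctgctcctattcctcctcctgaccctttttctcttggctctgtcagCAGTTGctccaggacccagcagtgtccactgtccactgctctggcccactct
Tnni2: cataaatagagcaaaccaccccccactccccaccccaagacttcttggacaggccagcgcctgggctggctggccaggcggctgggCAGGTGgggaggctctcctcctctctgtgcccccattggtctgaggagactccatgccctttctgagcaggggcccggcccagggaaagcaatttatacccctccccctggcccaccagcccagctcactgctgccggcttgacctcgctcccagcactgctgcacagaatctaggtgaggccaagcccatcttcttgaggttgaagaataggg
An E-box stood in 8 of the 9 promoters, Actn3 being the exception, and in 72.1% of 33469 rat promoters of the same length. A CArG box stood in 1 of the 9, that of Acta1 at 94 bases before the start, and in 1.64% of all promoters. The MEF2 site was in 0 of the 9 and in 3.29% of all. The M-CAT element CATTCC was found in Acta1 alone (14.2% of all), and TATAAA in Acta1 and Tnni2 (14.2% of all). Both strands were searched, and the E-box, its own reverse complement, was counted once. A match describes letters and not a bound site.

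The arrays of rats with tumors differed in how near they lay to normal bladder. Over all probe sets, the normal arrays correlated with each other at Pearson's r of 0.940 to 0.946. Tumor 1 correlated with them at 0.903 to 0.910, tumor 3 at 0.857 to 0.866 and tumor 2 at 0.843 to 0.851. Adjacent 1 correlated with them at 0.891 to 0.899, adjacent 2 at 0.877 to 0.885 and adjacent 3 at 0.838 to 0.844 (probe sets are not independent replicates). Median log2 signal ran from 6.87 to 7.23 over the 9 arrays. Urothelial genes were bright on every array, with Krt19, Krt7 and Upk3a between 13.46 and 14.89. For the members, fits that turn on tumor 1 are given with and without it. Fits and counts of the other gene lists are given only with tumor 1 included, and may also turn on it.

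Of the thin filament genes, Tnnc2 varied most widely between arrays. It encodes troponin C of fast fibres, the calcium sensor of the complex. It stood at 13.40, 13.03 and 13.46 in normal 1, 2 and 3. Among tumors it was 12.92 in tumor 1 but 1.66 in tumor 2 and 4.24 in tumor 3, both below the limit. Adjacent tissue gave 10.33, 5.25 and 3.21 in adjacent 1, 2 and 3. All 3 normal arrays were above every tumor and adjacent array, and both samples of rat 1, tumor 1 and adjacent 1, were the highest of their groups. Set against the normal mean, tumor 1 held 76.8% and adjacent 1 held 12.7%, whereas the other tumors and adjacent samples fell below 0.497%, the share that a signal of 50 represents.

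Acta1, the alpha-actin of skeletal muscle, followed a similar course. Normal 1, 2 and 3 read 11.71, 11.66 and 12.88. Tumor 1 read 11.91, within the normal range, and tumors 2 and 3 read 1.54 and 5.69. Adjacent 1, 2 and 3 read 9.29, 8.15 and 7.0, all below the normal arrays. In percent of the normal mean, Acta1 was 88.6% in tumor 1, 14.4% in adjacent 1, 6.58% in adjacent 2 and 2.95% in adjacent 3. Tumor and normal arrays overlapped, through tumor 1, and adjacent and normal arrays did not.

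Tnnt3 encodes the troponin T of fast fibres, which ties the complex to tropomyosin. Its brighter probe set read 9.20, 9.31 and 9.99 in normal 1, 2 and 3, 7.96, 4.59 and 6.75 in tumors 1, 2 and 3, and 6.43, 6.68 and 5.84 in adjacent 1, 2 and 3. No tumor or adjacent array reached the lowest normal array. The dimmer probe set read 5.96 to 6.50 in normal bladder, 2.27 to 5.07 in tumors and 4.97 to 5.78 in adjacent tissue, so that most of its arrays outside the normal group were under the limit. On that probe set tumor 1 was the lowest of the tumors, and on the brighter it was the highest. Every tumor array was under the limit on the dimmer probe set, so the order there is not read.

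Tnni2, the inhibitory subunit of the same troponin complex, did not share this pattern. It read 9.0, 9.06 and 8.75 in normal bladder, 9.49, 8.86 and 9.35 in tumors and 9.12, 9.27 and 9.06 in adjacent tissue. The lowest of the 9 arrays stood at 87.7% and the highest at 147% of the normal mean. The 3 groups overlapped.

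**Figure D1:**
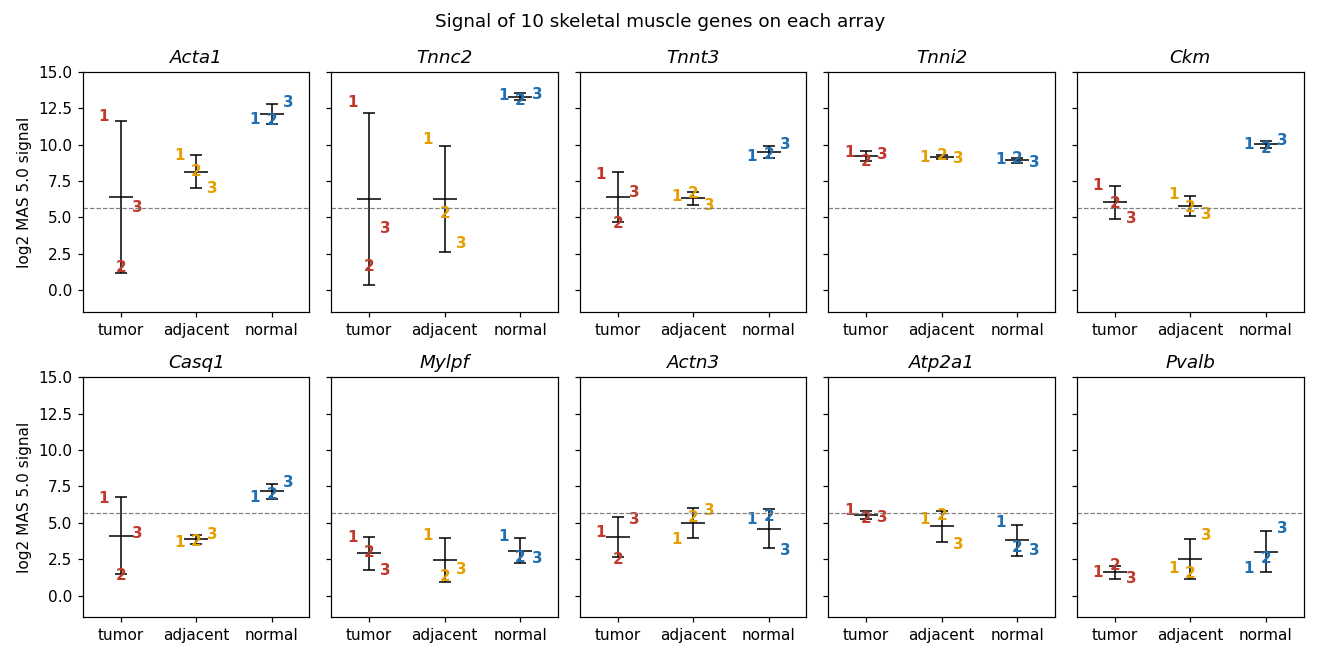
Log2 signal of the 10 genes (brightest probe set of each) on each of the 9 arrays, drawn as its replicate number, with the mean and SD of each group as bars and the limit of 5.64 as a dashed line. Acta1, Tnnc2, Tnnt3, Ckm and Casq1 are high on the 3 normal arrays, Tnni2 lies between 8.75 and 9.49 throughout, and Mylpf and Pvalb stay under the limit on all arrays.

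Ckm encodes the cytosolic creatine kinase of muscle. It read 10.02, 9.77 and 10.28 in normal 1, 2 and 3, 7.21, 5.99 and 4.90 in tumors 1, 2 and 3, and 6.56, 5.67 and 5.18 in adjacent 1, 2 and 3. All 6 arrays from rats with tumors were below the normal arrays, tumor 1 included. Tumor 1 held 14.2% of the normal mean of Ckm, tumor 2 held 6.09% and adjacent 1 held 9.06%. In the same tumor 1, Acta1 stood at 88.6%, Tnnc2 at 76.8%, Casq1 at 71.9% and Tnnt3 at 34.5% of their own normal means.

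Of the calcium handling genes, Casq1, the calsequestrin of fast fibres, was 6.76, 6.93 and 7.76 in normal bladder. It was 6.68 in tumor 1, just under the lowest normal array, and below the limit in tumors 2 and 3 (1.37 and 4.29). Adjacent tissue gave 3.66, 3.71 and 4.22, all below the limit. Atp2a1 ran the other way at signals under or near the limit, with 5.85, 5.31 and 5.39 in tumors, 5.19, 5.52 and 3.53 in adjacent tissue and 5.04, 3.27 and 3.1 in normal bladder. Pvalb ran from 1.19 to 4.63 and overlapped in all groups. Neither is read as a level here.

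The Z-disc and thick filament members were no brighter. Actn3 ran from 2.49 to 5.81 and Mylpf from 1.32 to 4.14 over the 9 arrays, with overlapping groups.

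**Figure D2:**
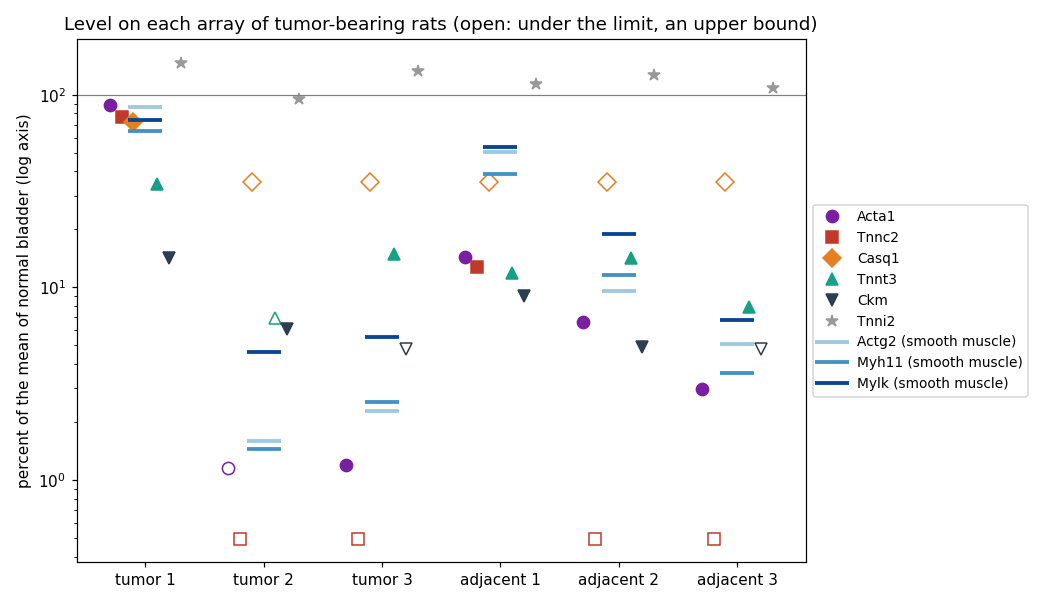
Signal of the members above the limit in normal bladder, as percent of the mean of the 3 normal arrays on a log axis, for each of the 6 arrays of rats with tumors, with short lines for the smooth muscle genes Actg2, Myh11 and Mylk. Open markers are arrays under a signal of 50, drawn at the share that 50 represents (0.497% for Tnnc2). In tumor 1, Acta1, Tnnc2 and Casq1 lie at 88.6%, 76.8% and 71.9%, and Ckm at 14.2%.

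In tumors compared with normal bladder, 2 of the 10 genes were lower and 0 higher at an adjusted p under 0.05, by limma with Benjamini-Hochberg adjustment over 31042 probe sets. Among all 14217 genes, 9.95% were lower and 13.6% higher (1414 and 1927 genes, or 1090 and 2504 with each array centred on its median, which moved the median difference of all genes to 0.25), and 23.5% were called in either direction. Ckm was 15.9-fold lower, a fall of 3.99 on the log2 scale (6.03 ± 1.16 SD in tumors against 10.02 ± 0.26 in normal bladder, n = 3 arrays each, SE 0.53, limma adjusted p = 0.00568). Tnnt3 was 8.37-fold lower, with a log2 difference of -3.07 (SE 0.77, limma adjusted p = 0.0356). Both sizes rest in part on an array under the limit (tumor 3 for Ckm, tumor 2 for Tnnt3), and with 50 added to every signal the differences were -3.17 and -2.35, both still called. The dimmer probe set of Tnnt3 gave -2.23 and did not pass (limma adjusted p = 0.0822). It was under the limit on every tumor array, and computed against the limit the fall was at least 1.46-fold. Tumors and normal bladder did not overlap, with tumors lower, for Ckm, Tnnc2, Tnnt3 and Casq1, 4 of the 10 genes, where 20.1% of all genes did so. Atp2a1 was the 1 gene of the 10 whose tumor arrays all lay above the normal arrays, as they did for 25.7% of all genes. An exact two-sided permutation test of each of these genes gave p = 0.1, the smallest that 3 against 3 arrays allow. The median difference of the 10 genes was -2.23 and that of all genes 0.05.

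Tnnc2, Acta1 and Casq1 did not pass in that comparison. Tnnc2 differed by -7.03 (SE 2.54, 95% confidence interval -13.00 to -1.05 before adjustment, limma adjusted p = 0.102). Acta1 differed by -5.70 (SE 2.27, 95% confidence interval -11.03 to -0.37, limma adjusted p = 0.130), and Casq1 by -3.04 (SE 1.21, limma adjusted p = 0.129). Their standard deviations among tumors were 5.90, 5.22 and 2.66, against 0.24, 0.69 and 0.53 among normal arrays. With tumor 1 left out, Ckm, Acta1, Tnnc2, Tnnt3 and Casq1 were all lower, 5 of 10 genes, where the share of all genes called lower rose to 17.5% and that called higher to 20.4%, with limma adjusted p of 0.000875 for Acta1, 3.45e-05 for Tnnc2 and 0.00708 for Casq1. Differences were then -8.46 for Acta1, -10.35 for Tnnc2 and -4.33 for Casq1, and they rest on signals under the limit in tumor 2 or in both tumors. The Tnnt3 call was lost without tumor 3 (limma adjusted p = 0.0893) and without any 1 of the normal arrays (0.0975 to 0.125).

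Tnni2 differed between tumors and normal bladder by 0.30 (SE 0.20, 95% confidence interval -0.17 to 0.76, limma adjusted p = 0.354). Atp2a1 differed by 1.72 (limma adjusted p = 0.103). It was under the limit on every normal array and on every tumor array but tumor 1, so this size is not read. Pvalb, Actn3 and Mylpf gave -1.42, -0.58 and -0.17, and none passed.

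In adjacent tissue compared with normal bladder, 5 of the 10 genes were lower and 0 higher, where 11.5% of all genes were lower and 13.3% higher (1636 and 1895 genes, or 1308 and 3012 with centred arrays, which moved the median of all genes to 0.21), and 24.8% were called in either direction. Ckm fell by 4.22 on the log2 scale, or 18.6-fold (5.81 ± 0.70 SD against 10.02 ± 0.26, n = 3 arrays each, SE 0.35, limma adjusted p = 0.000654). Tnnt3 fell by 3.18, or 9.07-fold (SE 0.30, limma adjusted p = 0.000921), with -0.85 on the dimmer probe set (limma adjusted p = 0.172). Acta1 fell by 3.93, or 15.3-fold (SE 0.56, limma adjusted p = 0.00365). Casq1, dim on all 3 adjacent arrays, was at least 2.84-fold lower (limma adjusted p = 0.00260). Tnnc2 differed by -7.04 (SE 1.52, limma adjusted p = 0.0169), a size that rests on 2 arrays under the limit and became -5.73 when 50 was added to every signal. With that addition Ckm gave -3.34 (adjacent 3 is under the limit) and Tnnt3 gave -2.57.

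All 5 of these genes were lower on every adjacent array than on every normal array, as were 21.9% of all genes. For 0 of the 10 genes did all adjacent arrays lie above all normal arrays, where 24.8% of all genes did so. The exact two-sided permutation p was 0.1 for each, again the smallest possible. The median difference was -1.92 for the 10 genes and 0.01 for all genes. The call of Tnnc2 was lost without adjacent 2 (limma adjusted p = 0.0586) or without any 1 of the normal arrays (0.0610 to 0.0693). In a fit of all 9 arrays together, the calls of Acta1, Tnnc2 and Casq1 were lost (limma adjusted p = 0.223, 0.0977 and 0.0675). Tnni2 differed by 0.21 (SE 0.16, 95% confidence interval -0.15 to 0.58, limma adjusted p = 0.408). The comparison shares its 3 normal arrays with that of the tumors, so the one is no independent check of the other.

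**Figure D3:**
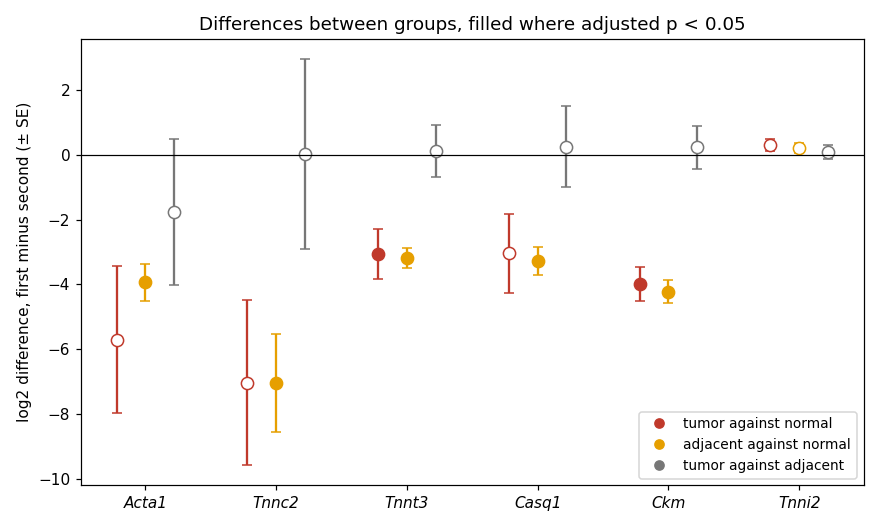
Log2 difference (points, with bars of 1 SE from limma) of the 6 members above the limit in normal bladder, in tumors against normal bladder, adjacent tissue against normal bladder and tumors against adjacent tissue, with filled points where the adjusted p was under 0.05. Ckm lies at -3.99 and -4.22 in the comparisons with normal bladder and at 0.22 between tumors and adjacent tissue, and the bars of Acta1 and Tnnc2 are wide wherever tumors enter.

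Between tumors and adjacent tissue, 0 of the 10 genes passed in limma and 0 had an unadjusted p under 0.05. Over all genes the share called was 0% in either direction, with 376 of 14217 at an unadjusted limma p under 0.05 (443 by the methods' test of means), and 0 called after adjustment by either. The arrays of tumors and adjacent tissue overlapped for all 10 genes, and over all genes tumors lay wholly below for 2.96% and wholly above for 4.1%. Differences were 0.22 for Ckm (95% confidence interval -1.31 to 1.76), 0.12 for Tnnt3 (-1.74 to 1.97), 0.01 for Tnnc2 (-6.81 to 6.84), 0.25 for Casq1 (-2.64 to 3.13), -1.77 for Acta1 (-7.02 to 3.48) and 0.08 for Tnni2 (-0.43 to 0.59). The intervals of Tnnc2 and Acta1 leave large differences in both directions. In rat 1, tumor exceeded adjacent tissue for Ckm (7.21 against 6.56), Acta1 (11.91 against 9.29), Tnnc2 (12.92 against 10.33), Tnnt3 (7.96 against 6.43) and Casq1 (6.68 against 3.66, the latter under the limit). In rat 2, the tumor was below adjacent tissue for Acta1 (1.54 against 8.15) and Tnnt3 (4.59 against 6.68) and above it for Ckm (5.99 against 5.67), and Tnnc2 and Casq1 were under the limit in both tissues. In rat 3, the tumor was below adjacent tissue for Acta1 (5.69 against 7.0) and above it for Tnnt3 (6.75 against 5.84), and Ckm, Tnnc2 and Casq1 were under the limit in both tissues.

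Smooth muscle genes, taken as a sum, were also below normal bladder on all 6 arrays of rats with tumors. All 20 genes of the smooth muscle list, among them the actins Acta2 and Actg2, the myosin heavy chain Myh11, desmin (Des) and calponin (Cnn1), had a normal mean above the limit, and none was dim on all arrays. Their summed signal was 71.4%, 10.9% and 9.33% of normal in tumors 1, 2 and 3, 38.2%, 15.2% and 9.48% in adjacent 1, 2 and 3, and 98.5% to 103% on the normal arrays. The summed signal of the 10 members was 74.2%, 3.56% and 5.55% in the tumors, 15.7%, 6.91% and 5.02% in adjacent tissue and 79.5% to 125% on the normal arrays. Sums follow the brightest genes, which for the members in normal bladder were Tnnc2 and Acta1. The median member, dim ones included, stood at 80.3%, 14.7% and 21.4% in the tumors and 29.8%, 21.9% and 27.2% in adjacent tissue. The median smooth muscle gene stood at 65.5%, 3.66% and 3.71% in the tumors and 34.0%, 9.18% and 4.93% in adjacent tissue. In limma, 9 of 20 smooth muscle genes were lower in tumors and 17 of 20 in adjacent tissue, and 0 were higher in either (9.95% and 11.5% of all genes were lower). Tpm2, Tpm1 and Cald1, the brightest of the list, are tropomyosins and caldesmon of the actin filament. Tpm2 differed by -0.96 in tumors, which did not pass (limma adjusted p = 0.0674), and fell by 1.42 in adjacent tissue. Tpm1 fell by 1.16 in tumors and by 1.56 in adjacent tissue, and Cald1 fell by 2.59 and by 2.35. The list was not uniform: Sync stayed between 85.3% and 124% of its normal mean on all 9 arrays, and Hspb7 and Flnc stood at 414% and 219% in tumor 1 (named after their values were seen). The part of smooth muscle in the members' results was not tested. In whole tissue, fewer cells of a type and less RNA per cell cannot be told apart.

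Across the 9 arrays, Tnnc2 and Des had a Pearson's r of 0.985, Tnnc2 and Myh11 0.982, and Acta1 and Des 0.969. The r of Tnnc2 with Acta1 was 0.935 and with Ckm 0.855. Other members differed from this: Tnnt3 and Casq1 had an r of 0.961 with each other, but 0.891 and 0.897 with Des. Ckm had 0.885 with Tnnt3, 0.845 with Des and 0.934 with Synpo2. Tnni2 had an r of -0.05 with Tnnc2 and -0.06 with Myh11. These values describe 9 points that fall into 3 groups and share arrays and rats. Actin genes are close in sequence, and Acta2 was lower by 3.08 in tumors and by 2.91 in adjacent tissue. Whether the Acta1 probe set also bound RNA of other actins was not tested.

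**Figure D4:**
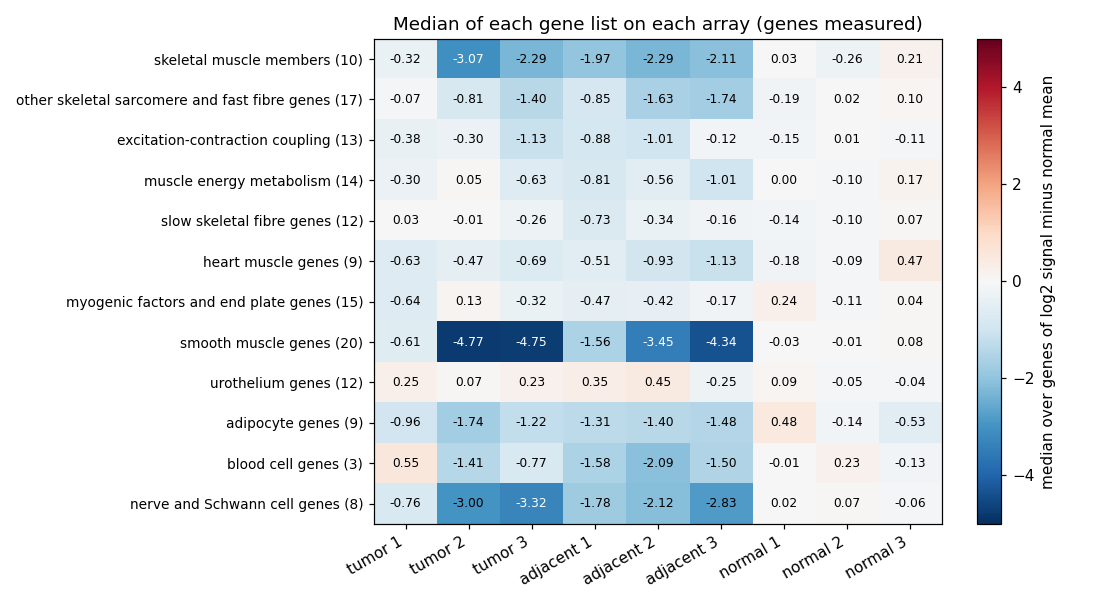
Median log2 difference from the normal mean over all measured genes of each gene list (rows), on each of the 9 arrays (columns), by colour. The smooth muscle row reads -0.61, -4.77 and -4.75 in tumors 1, 2 and 3, and -1.56, -3.45 and -4.34 in adjacent 1, 2 and 3.

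Counts in the following gene lists are to be read beside all genes, of which 9.95% were lower and 13.6% higher in tumors and 11.5% lower and 13.3% higher in adjacent tissue. Of all 14217 genes, 1727 were dim on all arrays. Of 17 other genes of the striated sarcomere, 6 were dim on all arrays, 3 were lower in tumors and 4 in adjacent tissue, and 0 were higher. Ldb3, a Z-disc protein, read 10.24 to 10.81 in normal bladder, 6.23 to 9.36 in tumors and 6.27 to 8.11 in adjacent tissue, with differences of -3.14 (limma adjusted p = 0.0358) and -3.15 (0.00309). The others lower in tumors were Myh2, a fast myosin heavy chain dim on all tumor arrays and at least 3.14-fold lower, and Myoz1 of the Z-disc (-1.85). In adjacent tissue Myh2, Myoz1 and Mybpc2 were lower beside Ldb3. The dimmer probe set of Mybpc2 gave -0.20 there and did not pass (limma adjusted p = 0.906). Mybpc2 differed by -3.01 in tumors, which did not pass (limma adjusted p = 0.0895). Myoz1, Myh2 and Mybpc2 are named because the counts are small, after their values were seen. Tcap, the titin cap of the Z-disc, was highest on a tumor array, with 10.07 in tumor 1 against 7.98 to 8.68 in normal bladder, and 5.39 and 6.19 in tumors 2 and 3. Myh1, a fast myosin heavy chain, lay between 10.94 and 11.59 on all arrays by the brightest of its 5 probe sets, and its probe sets disagree, the dimmest giving -1.08 in tumors (limma adjusted p = 0.0151). The brightest carries the suffix _x_at, which marks probe sets that can bind RNA of more than one gene.

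Of 13 genes of excitation-contraction coupling, 5 were dim on all arrays, 2 were lower and 1 higher in tumors, and 3 were lower and 1 higher in adjacent tissue. Jph1 and Jph2, the junctophilins that hold the calcium store against the cell membrane, were lower in tumors (-2.24 and -3.14) and in adjacent tissue (-1.68 and -2.98). Jph2 read 11.52 to 12.05 in normal bladder and 10.71, 7.47 and 7.54 in tumors 1, 2 and 3. Asph, which shares its locus with the calcium store protein junctin, was higher by 1.13 in tumors and by 1.24 in adjacent tissue on its brightest probe set, whereas the next brightest gave -0.41 and -0.33, neither of which passed. Sln, a small inhibitor of the calcium pump, was lower in adjacent tissue by at least 2.09-fold, and whether its change there differs from that in tumors was not tested (it was named after its values were seen).

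Of 14 genes of muscle energy metabolism, 4 were lower and 1 higher in tumors, and 3 were lower and 0 higher in adjacent tissue. Pfkm, the muscle phosphofructokinase, fell by 0.79 in tumors and by 1.36 in adjacent tissue, and Eno3, the muscle enolase, fell by 2.25 and by 3.05. The dimmer probe sets of Pfkm did not pass in either comparison. Fabp3, a fatty acid carrier, fell by 1.48 and by 1.97, and Pygm, the muscle glycogen phosphorylase, was dim in tumors and at least 2.92-fold lower there. In adjacent tissue the brightest probe set of Pygm differed by -3.14 and did not pass (limma adjusted p = 0.0879). Its dimmer probe sets were lower there by 2.42 (0.0252) and by 2.66 (0.0447). Aldoa, an aldolase that most tissues express, was higher in tumors by 0.66. Fabp3 and Pygm were named after their values were seen.

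Of 12 slow fibre genes, 1 was higher and 0 lower in tumors, and 1 was higher and 2 lower in adjacent tissue. The higher one was Tpm3 in both, a tropomyosin also made outside muscle (1.09 and 0.93), and those lower in adjacent tissue were Casq2, the calsequestrin of heart and slow muscle (-3.1), and Tnnc1, the troponin C of the same muscles (-2.53, named after its values were seen). Casq2 differed by -3.24 in tumors, which did not pass (limma adjusted p = 0.0813). Atp2a2, a calcium pump of many tissues, ran from 12.42 to 13.26 by the brightest of its 5 probe sets, whereas the next brightest was lower by 1.5 in tumors (limma adjusted p = 0.0185) and by 1.65 in adjacent tissue (0.00378). Among 9 heart genes, 1 was lower and 1 higher in tumors, and 3 were lower and 0 higher in adjacent tissue. Tnnt2, the cardiac troponin T, read 14.32, 14.14 and 14.31 in normal bladder, 13.32, 7.22 and 7.01 in tumors, and 12.44, 7.21 and 8.55 in adjacent tissue. It was lower in adjacent tissue by 4.86 (SE 1.13, limma adjusted p = 0.0219). In tumors it differed by -5.08, which did not pass (limma adjusted p = 0.0632). The high arrays among tumors and adjacent samples were again those of rat 1. Ankrd1, a stress-responsive muscle protein, was also lower in both (-1.93 and at least 3.74-fold). Tnni3 was higher in tumors at signals that were dim in both groups. Myh6 was lower in adjacent tissue, where it was dim on every array, as it was on normal 2. Its dimmer probe set gave -1.15 there and did not pass (limma adjusted p = 0.283). In tumors, where Myh6 was also dim on every array, it differed by -4.67 and did not pass (limma adjusted p = 0.0539). Ankrd1, Myh6 and Tnni3 were named after their values were seen. None of the 15 myogenic factors and end plate genes was called by limma in either comparison. At an unadjusted limma p under 0.05 there were 3 and 2, against 5693 and 5657 of all 14217 genes. Mef2a, a factor of many tissues, ran from 10.94 to 11.72 by its brightest probe set, and the next brightest was lower by 0.54 in adjacent tissue (limma adjusted p = 0.0274). Mef2c, a factor of muscle and other lineages, read 9.37, 7.55 and 7.22 in tumors 1, 2 and 3 and 9.21 to 9.45 in normal bladder. The natriuretic peptide gene Nppb of the heart list was not called. It read 8.46 and 10.48 in adjacent 2 and 3 and 8.87 in tumor 3, against 4.26 to 6.14 in normal bladder. Adjacent 1, tumor 1 and tumor 2 lay within that normal range (5.22, 5.81 and 4.96).

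Other cell types that a bladder sample can hold were read the same way. Summed urothelial signal (12 genes) ran from 91.2% to 137% of normal in tumors and adjacent tissue, with 4 genes higher and 1 lower in each comparison with normal bladder. Within that list the arrays differed more, with Krt5, a keratin of basal cells, at 1026% to 1499% of normal in tumors and adjacent tissue and Upk2, a uroplakin of the surface cells, at 11.3% in tumor 2 and in adjacent 3 (named after their values were seen). Summed nerve and Schwann cell signal (8 genes) was 60.5%, 29.8% and 25.7% in tumors 1, 2 and 3 and 21.6% to 44.6% in adjacent tissue, with 4 and 5 genes lower and 1 higher in each. Summed adipocyte signal (9 genes) was 50.2% to 96.9% in tumors and 50.5% to 68.3% in adjacent tissue, with 1 and 2 genes lower. That sum follows its brightest gene Fabp4, at 207% in tumor 2. The median adipocyte gene stood at 51.3%, 29.9% and 43.1% in tumors 1, 2 and 3 and at 35.8% to 40.4% in adjacent tissue. Summed blood cell signal (3 genes) was 138% in tumor 1, 35.4% and 57.9% in tumors 2 and 3 and 14.3% to 29.9% in adjacent tissue, with 0 and 2 genes lower. The highest of the 3 tumors was tumor 1 for nerve and blood genes too, and the part of these cell types in the members' results was not tested.

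Of 2068 genes outside the lists that varied by at least 2 on the log2 scale and reached a signal of 200, the 10 most like the mean log2 signal of the members had a Pearson's r of 0.984 to 0.995 over the 9 arrays. They were Fgfr1, a fibroblast growth factor receptor, Tmem200c, the transcription factor gene Zeb1, Lims2, the amine oxidase gene Aoc3, Afap1, Il12a, Gpx3, Zcchc24 and Tmem38a. Fgfr1 read 10.25, 8.07 and 8.73 in tumors 1, 2 and 3, 9.51, 9.02 and 8.82 in adjacent 1, 2 and 3 and 10.22 to 10.45 in normal bladder. Lims2, which encodes an adaptor at cell contacts with the matrix, read 10.67, 4.92 and 6.81 in the tumors, 9.52, 7.91 and 6.65 in adjacent tissue and 12.24 to 12.32 in normal bladder. Tmem38a, a channel of the sarcoplasmic reticulum, read 7.95, 5.54 and 6.12 in the tumors and 8.09 to 8.84 in normal bladder. These genes were picked for the likeness, so no test is given.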

How the data were processed

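Per the labels, total RNA of 9 rat tissue samples was labelled by 3' in vitro transcription and hybridised to Affymetrix arrays. The authors processed the scans with the MAS 5.0 algorithm, and the deposited table holds log2 signals. Its scale was checked: back-transformed, and with 2% of probe sets cut from each tail, all arrays had a like mean. The file lists 31099 probe sets, of which 57 are array controls, and the other 31042 were tested. A gene was represented by its probe set of highest mean log2 signal, among those that the annotation assigns to 1 gene, which gave 14217 genes.

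Pairs of groups were fitted separately with limma 3.58.1 in R 4.3.3 (lmFit, eBayes with a mean-variance trend) and adjusted by Benjamini-Hochberg with a threshold of 0.05. Single genes were also tested by an exact two-sided permutation of 3 against 3 arrays. Where a called gene lay under a signal of 50 on all arrays of a group, any fold given was computed against 50 and is given as "at least". Other differences are the fitted values, also where signals were dim. The fitting step was tested on simulated data. The number of arrays limits the precision. Replicates of a group are separate rats by the series design.

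The replicate numbers were used to pair tumor and adjacent tissue, because that design takes both from the same rats. That like numbers mark the same rat is an assumption. Deviations from the group means correlated at 0.523, 0.128 and 0.378 for numbers 1, 2 and 3 over 20418 probe sets. Tumor 2 correlated more with adjacent 3 (0.272) than with adjacent 2, and the other pairs of unlike numbers gave -0.465 to -0.052. These values do not settle the pairing of number 2.

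The rule for naming genes covered the 10 members and the 3 with the highest mean log2 signal in each of the other lists. It also covered the 10 whose signal over the arrays was most like the mean of the members. Of the genes under that rule, Mybpc3, Chrnb1, Car3, Lpl and those of the blood and nerve lists are not described. Acta2, Actg2, Myh11, Des, Cnn1, Mylk and Synpo2 of the smooth muscle list are named outside it, as are the genes marked in the text. Members and lists were chosen with earlier results of these data known. Alternatives were quantile normalization, median centring, removal of probe sets under the 40th percentile, an offset of 50, eBayes without the trend, a joint fit of 9 arrays, the replicate number as a block, averaging over the probe sets of a gene, the methods' t-test, and leaving out each array. Promoters came from RefSeq, build GRCr8.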

Additional observations from a re-analysis of the deposited data

How the results depend on the processing

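In tumors against normal bladder, 2 of the 10 genes were called. The count was 1 (Ckm) without a variance trend, 0 by the methods' t-test after adjustment, and 1 to 5 when 1 array was left out, with 5 only without tumor 1. The genes called lower among all 14217 moved too, from 1414 to 553 without a trend, 376 by the t-test, and 317 to 2483 when 1 array was left out, the highest without tumor 1. In adjacent tissue against normal bladder, 5 were called. The count was 2 (Ckm and Tnnt3) in a fit of all 9 arrays, 3 by the methods' t-test after adjustment, and 4 to 5 when 1 array was left out. Among all genes, 1636 were lower, 1245 in the fit of all 9 arrays, 616 by the t-test and 805 to 1984 when 1 array was left out. With the replicate block, 2, 5 and 0 members were called in tumors against normal, adjacent against normal and tumors against adjacent tissue, and the pairing changed no member's call. Normal rats share only a number with the others (correlations of -0.06 to 0.05 for tumors and -0.06 to 0.03 for adjacent tissue). Against normal bladder, no difference of Ckm, Acta1, Tnnc2, Tnni2, Tnnt3 or Casq1 changed sign in any alternative that was run. Casq1 gave no value under the filter at the 40th percentile.

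Between tumors and adjacent tissue, where no gene was called, 12 differences changed sign. The mean of the probe sets gave -0.63 for Tnnt3. When 1 array was left out, differences ran from -0.36 to 0.79 for Ckm, -4.53 to 0.65 for Acta1, -3.31 to 2.32 for Tnnc2, -0.046 to 0.27 for Tnni2, -0.65 to 1.04 for Tnnt3 and -1.04 to 1.62 for Casq1. For each of these 6 genes, the lowest value was that without tumor 1. The causes were not tested. Signals under 50 limit the size of the differences of Tnnc2, Acta1, Casq1, Ckm and Tnnt3, each of which rests on such arrays in tumors or adjacent tissue.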
